A study of Mus musculus with 6 samples.

Results

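The genes described are 2 FoxO transcription factors, Foxo1 and Foxo3, and 8 genes known as FoxO targets or as parts of the insulin pathway that FoxO feeds back on, namely Txnip, Irs2, Insr, Sesn1, Sesn3, Pik3ip1, Klf2 and Ccng2. They were chosen by name, as the probe sets whose only gene symbol is one of these names, and all 10 were measured among 19938 genes. Gene expression was measured on Affymetrix arrays in 3 relapsed gliomas, numbered 1, 2 and 3, and in 3 control gliomas, numbered 1, 2 and 4, with 1 array per tumour. Every tumour grew under the skin of the flank of an immunodeficient Nu/Nu mouse, from implanted glioma cells driven by a mutated EGFR, the receptor of epidermal growth factor, and was collected at 2 cm3. The relapsed gliomas had regrown after extinction of that receptor. Doxycycline was given to some of the mice at 2 g/L in their water. The labels name neither the group that received it nor the age of the mice, the number of cell clones or whether each tumour came from its own animal. The p-values below measure the spread between these tumours, part of which may be technical. Tumours that share an animal or a cell clone would not be independent.

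FoxO proteins are forkhead transcription factors that work downstream of insulin and growth factor receptors. When such a receptor activates phosphatidylinositol 3-kinase (PI3K), the kinase AKT phosphorylates FoxO, which is then held in the cytoplasm. When the signal falls, FoxO enters the nucleus and activates genes of cell cycle arrest, stress resistance and, as a feedback, insulin signalling itself. This control acts on the protein, and an array measures transcripts only.

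Of the 10 genes, Txnip rose in relapsed tumours, by 1.26 ± 0.17 on the log2 scale (SE, 3 arrays per group), or 2.39-fold. It encodes the thioredoxin-interacting protein, which binds thioredoxin and restrains glucose uptake. The sestrin gene Sesn1 and the cyclin gene Ccng2 had the next highest differences, 1.11 ± 0.33 and 0.87 ± 0.33, and neither passed the test. The transcripts of Foxo1 and Foxo3 themselves differed by 0.15 ± 0.10 and 0.12 ± 0.13, also short of the threshold. By limma with Benjamini-Hochberg adjustment over all genes, at an adjusted p under 0.05, 1 of the 10 genes rose and 0 fell. Over all 19938 genes, 3.69% rose and 5.47% fell, 9.16% in either direction, so the share among the 10 lies near that background. At an unadjusted p under 0.05 in limma, 3 of the 10 were higher and 0 lower, against 11.2% and 15.4% of all genes.

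Stretches before the transcription starts of Txnip, Irs2 and Ccng2 are shown because they hold the letters known as FoxO or glucose-response elements, with that of Arrdc4, a relative of Txnip, for comparison. They were read from RefSeq promoter windows of build GRCm38.p6, 250 bases before to 50 bases after a gene's start, and 9 of the 10 genes had such a window. Positions count from the start, with -1 as the last base before it. Capitals mark the letters of the motifs searched on both strands.
Txnip, chr3:96557817-96557896, plus strand, positions -140 to -61: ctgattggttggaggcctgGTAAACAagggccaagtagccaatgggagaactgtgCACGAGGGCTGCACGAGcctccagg
Irs2, chr8:11008940-11008999, minus strand, positions -70 to -11: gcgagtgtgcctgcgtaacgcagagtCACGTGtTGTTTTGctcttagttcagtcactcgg
Ccng2, chr5:93267513-93267572, plus strand, positions -60 to -1: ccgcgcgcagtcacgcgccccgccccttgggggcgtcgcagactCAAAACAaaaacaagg
Arrdc4, chr7:68749408-68749448, minus strand, positions -210 to -170: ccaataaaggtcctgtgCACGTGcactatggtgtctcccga

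The FoxO core GTAAACA lay in the Txnip window at positions -121 to -115. It also lay on the reverse strand of 1 of 2 Sesn1 windows, at positions 23 to 29, after the start. That makes 2 of the 10 windows of these genes, against 3.65% of 32851 windows of all genes. The related insulin response element CAAAACA lay in the Irs2 window on the reverse strand, where it reads TGTTTTG, and in the Ccng2 window, against 6.28% of all windows. The E-box CACGTG, to which many helix-loop-helix factors bind, lay next to it in the Irs2 window and was found in 7.15% of all windows. In the Txnip window a pair of imperfect E-boxes, 2 copies of CACGAG with 5 bases between them, lay at positions -85 to -69. This is the arrangement of the carbohydrate response element read by MondoA and ChREBP with their partner Mlx, and the spelling was searched after the Txnip sequence had been read. It was found in 1 of the 32851 windows, or 0.00304%. That window is the Txnip window from which it was read, so the count cannot measure how rare the element is. The first 3 motifs do not overlap one another in these stretches, and a match is a run of letters, with no measurement of binding.

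Txnip lies on chromosome 3, at chr3:96557957-96561857 of GRCm38.p6. Its log2 intensity was 11.24, 10.82 and 10.91 in relapsed 1, 2 and 3, against 9.72, 9.50 and 9.98 in control 1, 2 and 4. All relapsed tumours were above all control tumours, and the lowest relapsed array stood 0.84 above the highest control array. Groups that do not overlap, with the relapsed ones above, were found for 13.0% of all genes. Txnip averaged 10.99 ± 0.22 in relapsed and 9.73 ± 0.24 in control tumours (SD, n = 3 each). The 95% interval of the difference was 0.84 to 1.68, and limma gave an adjusted p of 0.0184. Its difference was larger than those of 98.4% of genes. The size held when any 1 array was left out, at 1.13 to 1.38, but the call did not. Adjusted p in limma was 0.0537 without relapsed 2, 0.0648 without relapsed 3, 0.0672 when control 1 was left out and 0.0503 for control 4. It stayed under 0.05 without relapsed 1, at 0.0436, and without control 2, at 0.0498.

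**Figure D1:**
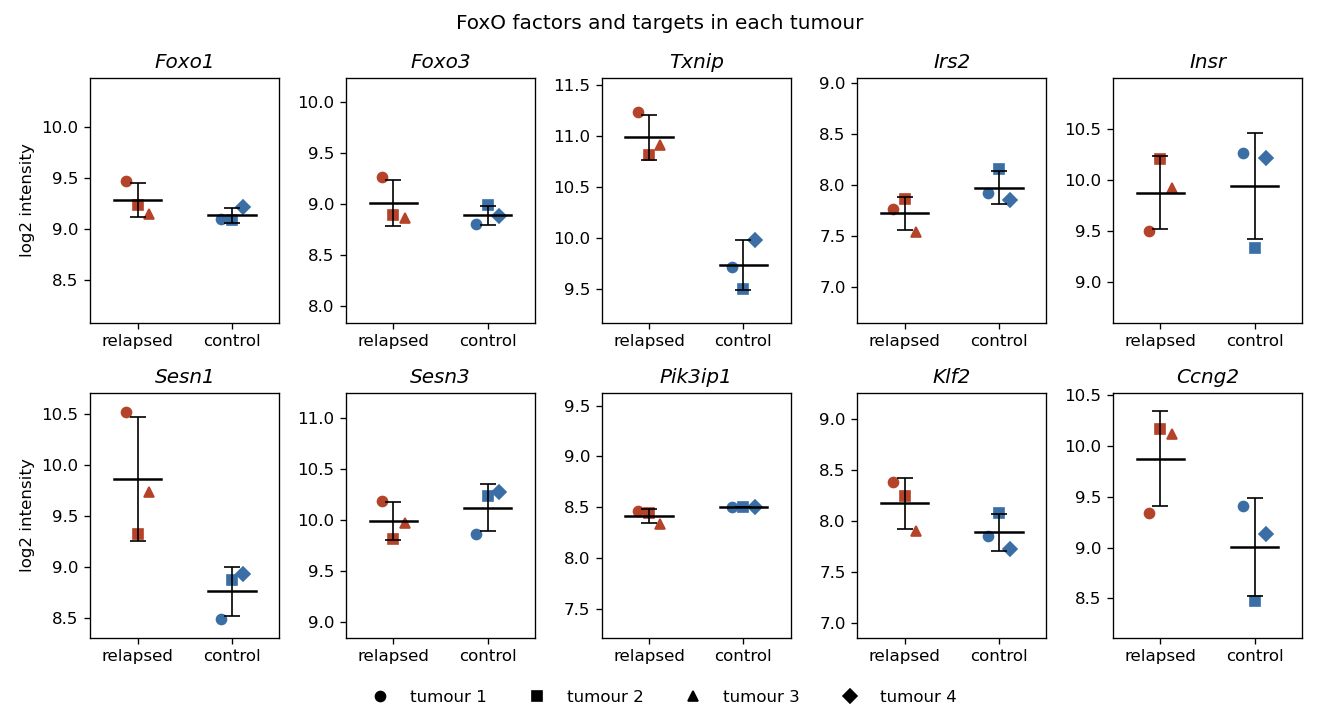
Log2 intensity (y axis, the same span in each panel) of the 10 genes in relapsed tumours (red, left) and control tumours (blue, right), 1 point per tumour with its number as the symbol, where a shared number is not known to pair tumours. Horizontal bars are means and error bars SD over 3 arrays; Txnip and Sesn1 have all relapsed points above all control points, and the relapsed 1 point is the highest for Foxo1, Foxo3, Txnip, Sesn1 and Klf2.

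The FoxO transcription factors themselves did not pass the test. Foxo1, the family member best known for insulin-regulated transcription, had 9.47, 9.23 and 9.14 in relapsed tumours, against 9.09, 9.09 and 9.21 in control tumours. The groups overlapped, since control 4 was above relapsed 3. The 95% interval of its difference was -0.10 to 0.40. Foxo3, which is known for its role in apoptosis and stem cell quiescence, had 9.27, 8.89 and 8.86 in relapsed tumours, against 8.80, 8.99 and 8.88 in control tumours. Relapsed 1 alone lay above the controls, and without it the difference was -0.014. Adjusted p in limma was 0.418 for Foxo1 and 0.624 for Foxo3. Foxo4, a further FoxO gene, averaged 7.81 ± 0.22 in relapsed and 8.01 ± 0.27 in control tumours (SD, n = 3 each), with an adjusted p of 0.532 in limma.

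Sestrins are stress-induced proteins that restrain the growth kinase complex mTORC1, and all 3 mouse genes were measured. Sesn1, a target of p53 as well as of FoxO, had 10.53, 9.32 and 9.74 in relapsed tumours, against 8.48, 8.87 and 8.92 in control tumours. The groups did not overlap, but relapsed 1 stood well above the other relapsed tumours, and the SD was 0.61 in relapsed against 0.24 in control tumours. The 95% interval of the difference of 1.11 was 0.29 to 1.92, and the adjusted p was 0.0997 in limma. It passed when only the brighter 50% of genes were tested (adjusted p = 0.0478), and without relapsed 1 it was 0.77 ± 0.20 with an adjusted p of 0.106. Sesn3, a FoxO target in several cell types, had 10.18, 9.82 and 9.97 in relapsed tumours, against 9.86, 10.23 and 10.27 in control tumours. Its groups overlapped, and the difference was -0.13 ± 0.15 with an adjusted p of 0.642. Sesn2, which is induced by the integrated stress response and is no member of the 10, fell by 1.39 ± 0.19 to 7.59 ± 0.19 in relapsed tumours, against 8.98 ± 0.33 in control tumours (SD, n = 3 each), with an adjusted p of 0.0190 in limma. All relapsed tumours were below all control tumours for Sesn2, and its adjusted p in limma was over 0.05 when relapsed 2 (0.0627), relapsed 3 (0.0670), control 2 (0.0610) or control 4 (0.0578) was left out.

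Ccng2 encodes an unconventional cyclin associated with cell cycle exit. It had 9.34, 10.16 and 10.12 in relapsed tumours, against 9.41, 8.47 and 9.14 in control tumours. Relapsed 2 and 3 were above every control, while relapsed 1 lay below control 1, so the groups overlapped. The difference of 0.87 ± 0.33 had an adjusted p of 0.172 in limma, and it was 0.60 without control 2 and 1.14 without relapsed 1. Its relative Ccng1, a p53 target, rose by 0.92 ± 0.17 to 11.46 ± 0.10 in relapsed tumours, against 10.54 ± 0.31 in control tumours (SD, n = 3 each), with an adjusted p of 0.0345 in limma. Ccng1 was not called without control 1, control 4 or any 1 relapsed tumour, with adjusted p in limma of 0.0749 to 0.110.

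Insulin receptor and adapter genes, which FoxO is known to activate when insulin is low, were not called. Irs2, the insulin receptor substrate that FoxO controls in liver, had 7.76, 7.86 and 7.54 in relapsed tumours, against 7.92, 8.15 and 7.85 in control tumours. The groups touched, with relapsed 2 just above control 4, and the difference was -0.25 ± 0.12 with an adjusted p of 0.260 in limma. Insr, the insulin receptor, had 9.50, 10.21 and 9.92 in relapsed tumours, against 10.26, 9.34 and 10.22 in control tumours. Relapsed 1 and control 2 were the low arrays of their groups, as they were for Ccng2. Relapsed 1 also had the highest adipocyte marker score, 2.14, and control 2 the highest skeletal muscle score, 1.74, and their part in these values was not tested. The difference of -0.06 ± 0.31 changed sign when single arrays were left out, as listed with the other processing results. A second Insr probe set, tested over all 35556 probe sets, had 8.65, 9.00 and 8.91 in relapsed tumours, against 9.14, 9.03 and 9.20 in control tumours, with a difference of -0.27 ± 0.11 and an adjusted p of 0.226. All relapsed tumours were below all control tumours for this second probe set, as for 17.8% of genes, but by only 0.03 between the nearest arrays. The groups of the probe set with the higher mean overlapped. The related receptor and adapter Igf1r and Irs1 differed by -0.57 ± 0.18 and 0.41 ± 0.19, with adjusted p of 0.123 and 0.240 in limma.

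Pik3ip1 and Klf2 complete the list. Pik3ip1, a membrane protein that inhibits PI3K, had 8.47, 8.44 and 8.33 in relapsed tumours, against 8.51, 8.50 and 8.50 in control tumours. All relapsed tumours were below all control tumours, as for 17.8% of genes, but by no more than 0.04 between the nearest arrays. The difference was -0.09 ± 0.06, with an adjusted p of 0.379 in limma. Control 2 and control 4 had the identical deposited value, and 38.9% of all genes shared a value between at least 2 arrays. Klf2, a zinc finger factor of endothelium and of quiescent lymphocytes, had 8.38, 8.25 and 7.90 in relapsed tumours, against 7.86, 8.08 and 7.73 in control tumours. The groups overlapped, and the difference was 0.29 ± 0.16 with an adjusted p of 0.319 in limma. Endothelial markers, measured in the same arrays, scored -0.28 to -0.02 in relapsed and 0.02 to 0.32 in control tumours.

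**Figure D2:**
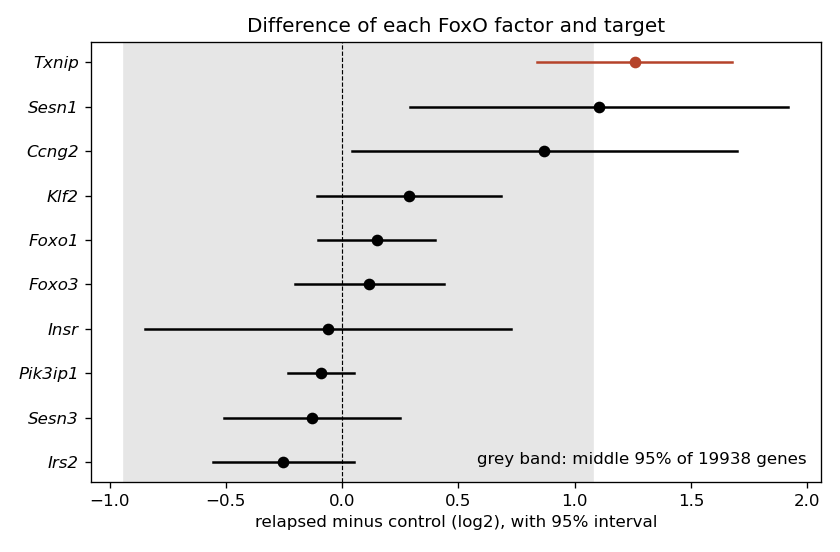
Difference of each of the 10 genes between relapsed and control tumours (x axis, log2, relapsed minus control), with 95% intervals from limma; red marks an adjusted p under 0.05. Txnip alone is red, at 1.26, and the intervals of Sesn1 and Ccng2 are wide, while the grey band spans -0.94 to 1.08, the middle 95% of all genes.

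The order of the relapsed tumours differed between the genes. Relapsed 1 was the highest relapsed array for 7 of the 10 genes, and without a tie for 32.5% of all genes. It was the lowest relapsed array for Insr and Ccng2. Among the controls, control 2 alone was the lowest for 4 of the 10 genes, and for 35.3% of all genes, and it was tied with control 4 for Pik3ip1. The median difference of the 10 genes was 0.13, against -0.02 over all genes, with 6 above 0 and 4 below.

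**Figure D3:**
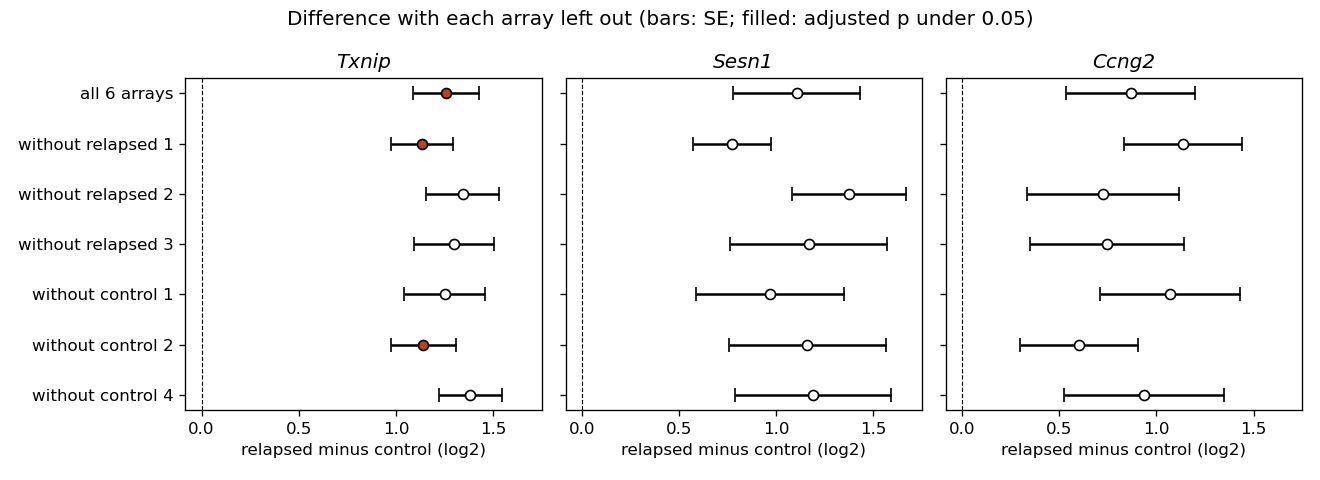
Difference between relapsed and control tumours (x axis, log2) for Txnip, Sesn1 and Ccng2 with all 6 arrays and with each array left out (y axis); bars are SE and filled points have an adjusted p under 0.05 in limma. Txnip stays between 1.13 and 1.38, Sesn1 between 0.77 and 1.37, and Ccng2 between 0.60 and 1.14.

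Genes of the pathway around FoxO were counted in 6 further lists, 125 measured genes in all with each counted once. Of these 4 rose and 9 fell, or 10.4%, against 9.16% of all genes. Among 24 genes of insulin and PI3K-AKT-mTOR signalling, 0 rose and 3 fell in limma. At an unadjusted p under 0.05 they were 3 and 6, against 11.2% and 15.4% of all genes. Phlpp1, a phosphatase that removes the activating phosphate of AKT, fell by 1.40 ± 0.17 to 8.16 ± 0.21 in relapsed tumours, against 9.56 ± 0.26 in control tumours (SD, n = 3 each), with an adjusted p of 0.0158. Tsc2, an inhibitor of mTORC1 that AKT inactivates, fell by 0.55 ± 0.07, and Pik3r2, a regulatory subunit of PI3K, by 0.52 ± 0.09. The list's median difference was -0.08.

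Among 31 other genes known as FoxO targets, 2 rose and 2 fell in limma, with a median difference of 0.04. Il7r, the interleukin-7 receptor of lymphocytes, rose by 1.28 ± 0.24 to 8.22 ± 0.13 in relapsed tumours, against 6.93 ± 0.45 in control tumours (SD, n = 3 each), with an adjusted p of 0.0345. Lymphocyte markers scored -0.16 to 0.57 in relapsed and -0.44 to -0.09 in control tumours, and their part in the Il7r difference was not tested. Rbl2, a relative of the retinoblastoma protein that FoxO activates in arrested cells, rose by 0.39 ± 0.08, and limma gave it an adjusted p of 0.0467. The Rbl2 call was lost after median centring (0.0694), with all probe sets tested (0.0654), with limma-trend (0.0734) and in 5 of the 6 fits without 1 array. Ccnd2, a D-type cyclin that FoxO is known to repress, fell by 0.84 ± 0.13. Ddit4, a stress-induced inhibitor of mTORC1, fell by 1.01 ± 0.20.

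Among 25 genes of proteins that modify or bind FoxO, 0 rose and 1 fell in limma. Counts at an unadjusted p under 0.05 were 2 higher and 4 lower, against 11.2% and 15.4% of all genes. Trib2, a pseudokinase described in human melanoma as a repressor of FoxO, had 7.97, 8.48 and 8.61 in relapsed tumours, against 10.20, 9.78 and 10.54 in control tumours. All relapsed tumours were below all control tumours, and 1.17 lay between the nearest arrays. Trib2 fell by 1.82 ± 0.26, which is 3.53-fold, and limma gave it an adjusted p of 0.0196. The list's median difference was -0.06. Of 16 family relatives of the 10 genes, Ccng1 rose and Sesn2 fell, with a median difference of -0.02.

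Around Txnip, 12 genes of glucose sensing, thioredoxin and glucose uptake were measured, of which 0 rose and 1 fell in limma. Counts at an unadjusted p under 0.05 were 1 higher and 4 lower, against 11.2% and 15.4% of all genes. Mlx, the shared partner of MondoA and ChREBP on the E-box pair shown above, fell by 0.43 ± 0.06 to 10.27 ± 0.01 in relapsed tumours, against 10.70 ± 0.07 in control tumours (SD, n = 3 each), with an adjusted p of 0.0183. Mlxip, which encodes MondoA, differed by -0.04 ± 0.10. Arrdc4, like Txnip an arrestin-domain gene that MondoA is known to activate, had 8.22, 8.33 and 8.19 in relapsed tumours, against 8.18, 8.33 and 8.79 in control tumours. Its groups overlapped, and the difference was -0.18 ± 0.17 with an adjusted p of 0.545. Arrdc3, a further relative, differed by 0.47 ± 0.16 with an adjusted p of 0.137. Among 18 genes of AMPK and nutrient sensing around the sestrins, Rragc, a GTPase that activates mTORC1 at the lysosome, rose by 0.53 ± 0.11, with an adjusted p of 0.0441 in limma. It was not called with all probe sets tested (0.0619), with limma-trend (0.0593) or without any 1 of the 6 arrays (0.0701 to 0.122). Nprl3, a subunit of a complex that inhibits mTORC1 when amino acids are scarce, fell by 0.59 ± 0.10. The median differences of these lists were -0.14 and -0.14. Leaving out 1 array removed many of the 13 pathway calls. Pik3r2, Ddit4, Nprl3 and Rragc were called in 0 of these 6 fits, Il7r, Ccnd2, Rbl2 and Ccng1 in 1, Tsc2, Trib2, Mlx and Sesn2 in 2, and Phlpp1 in 3. With relapsed 1, 2 or 3 left out, 0, 2 and 0 genes were called higher and 6, 0 and 0 lower. With control 1, 2 or 4 left out, 0, 2 and 0 were called higher and 3, 4 and 0 lower.

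**Figure D4:**
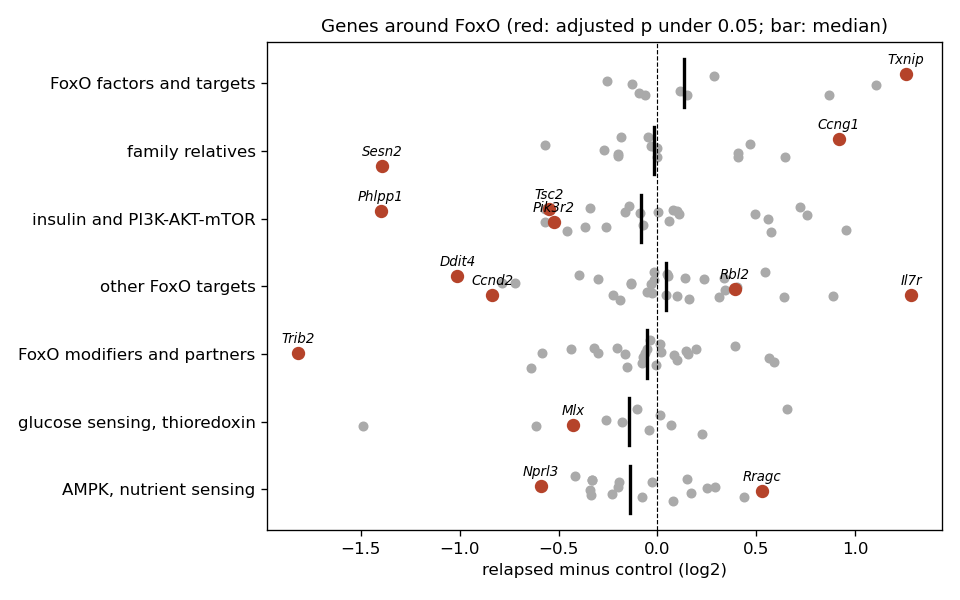
Difference of each gene between relapsed and control tumours (x axis, log2) for the 10 FoxO factors and targets and 6 lists around them (y axis), 1 point per gene. Red points, which are named, have an adjusted p under 0.05 in limma, and vertical bars are list medians, which lie between -0.14 and 0.13.

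Tumours differed in their cell type markers, given as the mean over a list of log2 values minus each gene's mean over the 6 arrays. Fewer cells of a type and less RNA per cell cannot be told apart in such samples. As a background for the counts of called markers, 3.69% of all genes rose and 5.47% fell in limma. Macrophage markers scored 0.53 to 0.99 in relapsed and -0.93 to -0.51 in control tumours, with 11 of 14 risen, most of all Mrc1, Ptprc, Tyrobp and Itgam. Fibroblast markers scored 0.54 to 1.26 in relapsed and -1.04 to -0.47 in control tumours, with 9 of 11 risen, most of all Lum, Dpt, Fap and Dcn. In the 6 fits without 1 array, Mrc1 and Dcn were called in 6, and Ptprc and Fap in 0. Itgam was called in 3 of them, Tyrobp in 2, and Lum and Dpt in 1. Neural and glial markers scored -0.75 to -0.63 in relapsed and 0.40 to 1.03 in control tumours, with 6 of 12 fallen, most of all Olig2, Olig1, Bcan and Ptprz1. In this list 3 of the 12 had higher means in relapsed tumours without passing the test, namely Gfap (0.64), Pdgfra (0.64) and Cspg4 (0.09), singled out after their values were seen. All 12 of these glial markers had group means above 5.66, the median value of probe sets without a gene in the platform annotation, in both groups. Of 11 lymphocyte markers, 8 were above 5.66 in relapsed and 6 in control tumours. Of 8 keratinocyte markers, 7 were above it in relapsed and 5 in control tumours. Of the 10 genes, Txnip and Sesn1 had all relapsed tumours above the controls, and Pik3ip1 had all below. Groups did not overlap for 30.8% of all genes, with relapsed tumours above for 13.0% and below for 17.8%. Sesn2, Phlpp1 and Trib2 were among the pathway genes with all relapsed tumours below. Of the 125 pathway genes, 17 had all relapsed tumours above and 27 all below the controls. The part of the macrophage, fibroblast and glial lists in the differences was not tested. Mitotic and replication genes scored -0.23 to -0.13 in relapsed and 0.09 to 0.25 in control tumours, with 3 of 13 fallen, namely Plk1, Mcm3 and Aurka. Another 3 of the 13 had higher means in relapsed tumours without passing the test. These were Pcna (0.15), Ccna2 (0.13) and Mki67 (0.07), singled out after their values were seen.

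Single arrays carried markers of other tissues. Adipocyte markers scored 2.14 in relapsed 1 and at most -0.21 elsewhere, skeletal muscle markers 1.74 in control 2 and at most 0.08 elsewhere, and keratinocyte markers 1.36 in relapsed 3 and at most -0.20 elsewhere. In limma 0 genes of these lists were called, with 0, 2 and 0 at an unadjusted p under 0.05. The 2 were lower, as were 15.4% of all genes at that unadjusted threshold. The smallest p-values were those of Fabp4 and Pnpla2 among adipocyte, Myh1 and Myh2 among muscle, and Trp63 and Dsp among keratinocyte markers. Of the 10 adipocyte markers, 9 had higher means in relapsed tumours, Fabp4 by 1.73. Pnpla2 had a lower one (-0.43), with its highest value in control 2. Among 15 endothelial markers Robo4 fell, or 6.67%, against 5.47% of all genes, and Robo4 was called in 0 of the 6 fits without 1 array. Among lymphocyte markers 0 were called, and the smallest p was that of Cd79b and Nkg7. In limma 3 were higher at an unadjusted p under 0.05, against 11.2% of all genes. Txnip differed by 1.13 without relapsed 1, by 1.30 without relapsed 3 and by 1.14 without control 2, and it was not called without relapsed 3 (adjusted p = 0.0648 in limma). The part of these markers in the Txnip difference was not tested.

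**Figure D5:**
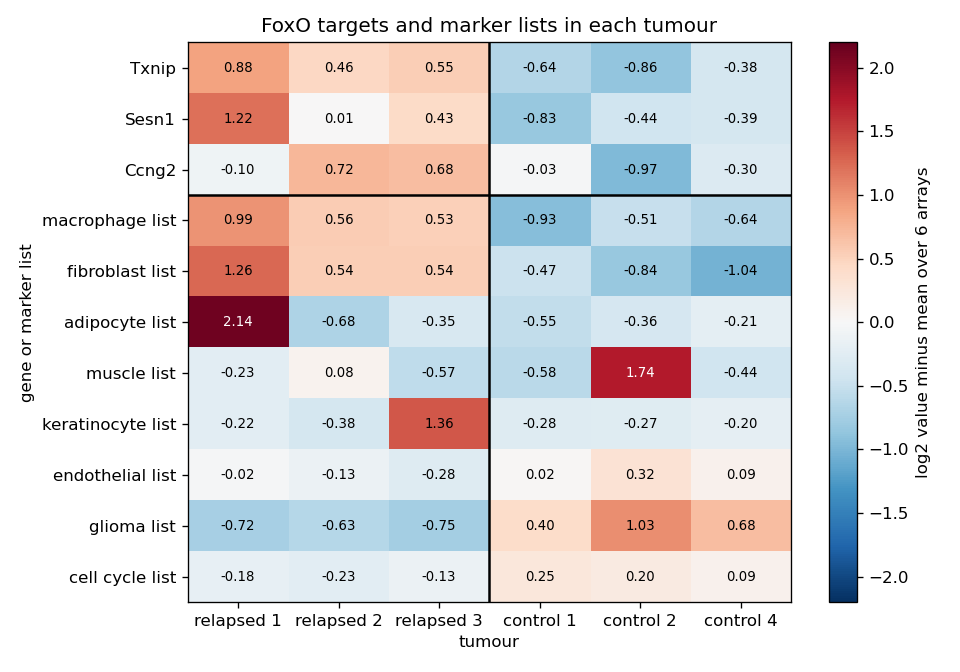
Deviation from the mean over the 6 arrays (colour and printed value, log2) of Txnip, Sesn1 and Ccng2 and of 8 marker lists (rows) in each tumour (columns, relapsed left of the line). Macrophage and fibroblast rows are positive in all relapsed and negative in all control tumours, as are Txnip and Sesn1. The adipocyte, muscle and keratinocyte rows each stand out in 1 tumour.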

How the data were processed

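The authors deposited log2 intensities, 1 per probe set and array, normalized between arrays, with array medians of 6.58 to 6.68. The log2 scale was read from the values. The affy package is named in the submitters' processing notes, and how background, normalization and summarization were done is not given there. Labels give no batch or scan date. Per the labels' protocols, 5 ug of total RNA was labelled.

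Of 35556 probe sets, 21789 had 1 gene symbol, and the one with the highest mean stood for each of 19938 genes. Relapsed minus control was fitted by limma 3.58.1 in R 4.3.3 (lmFit and eBayes, 4 residual degrees of freedom), checked on simulated data. P-values were two-sided. With 3 arrays a group, precision is limited. The 10 genes and the 15 further lists were chosen with earlier results of these data known. Of the lists' 242 entries, 230 were measured by a probe set with 1 symbol. Named beside the 10 were 8 fixed relatives and, per list, up to 4 called genes with the largest absolute difference. Where a list had no called gene, the 2 with the smallest p were named. Arrays that tied were counted as neither highest nor lowest. Alternatives were the dimmer 50% of genes left out, quantile normalization, median centring, the mean of a gene's probe sets, all probe sets tested, limma-trend, the replicate number as a block and each array left out.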

Additional observations from a re-analysis of the deposited data

How the results depend on the processing

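Txnip kept its direction under all 13 alternatives, at 1.13 to 1.42, with adjusted p in limma from 0.00749 to 0.394. The highest is that of the replicate number as a block (difference 1.42), which rests on 4 arrays. Under that block limma called 0 genes, with 1095 higher and 1104 lower at an unadjusted p under 0.05. The numbers are not said to pair the tumours, and same-numbered tumours deviated from their group means in opposite directions over genes (r of -0.34 for number 1 and -0.25 for number 2). Differently numbered tumours had r of -0.19 to 0.35. Deviations from the mean of 3 arrays sum to 0, so these r depend on one another and cannot decide whether tumours were paired. With the dimmer 50% of genes left out, 2 of the 10 genes were called higher, Txnip and Sesn1. Leaving out 1 array gave 0 to 1 of the 10 called higher, 120 to 380 of all genes higher and 144 to 595 lower, and 0 to 2 pathway genes higher and 0 to 6 lower, against 735, 1091, 4 and 9 with all arrays. Median centring called 1687 genes lower, and testing all probe sets called 716 genes lower and 2 pathway genes higher, as did limma-trend with 2 pathway genes higher. The median difference of all genes was -0.02 as deposited, -0.07 after quantile normalization and -0.09 after median centring.

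Of the recomputed differences of the 53 named genes, 510 kept direction and side of the threshold, 161 lost the call, 2 gained it and 8 changed sign. Those that changed sign were near 0. Insr was 0.13 without relapsed 1, 0.10 without control 1, 0.078 without control 4 and 0.055 under the replicate block, in a range of -0.36 to 0.13 with 1 array left out. Foxo3 was -0.014 without relapsed 1, in a range of -0.014 to 0.19. Mlxip was 0.048 without relapsed 3, in a range of -0.12 to 0.048, and 0.046 under the block, where Arrdc4 was 0.022. The cause was not tested.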
